A study of Mus musculus with 48 samples.

Results

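Mt1 and Mt2, the main liver metallothionein genes of the mouse, are the 2 genes described here. They were taken by gene symbol from 49315 genes in a deposited table of liver poly(A) RNA. The table held 48 C57BL/6J mice in 8 groups of 6, one library per liver. The groups crossed sex, diet (LFD, low in fat, or HFD, high in fat) and exposure (vehicle, or a weekly mixture of TCDD at 10 ng/kg, PeCDF at 80 ng/kg and PCB126 at 140 ng/kg), and livers were collected after 12 weeks. TCDD, PeCDF and PCB126 are dioxin-like chemicals that activate the aryl hydrocarbon receptor. No genetic alteration is named in the labels, and the age of the mice, the route of dosing and the fat content of the diets were not stated in the labels.

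Metallothioneins are short, cysteine-rich proteins of the cytosol and nucleus that bind zinc and copper, and also take up cadmium. In the liver their genes are switched on when free zinc rises, through the transcription factor MTF-1, which binds short metal response elements (MREs) in their promoters. Glucocorticoids, the cytokines of the acute-phase response and oxidative stress are also known to raise them. This is background and was not measured here.

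Both genes are protein coding and lie on the forward strand of mouse chromosome 8 (build GRCm38, GENCODE annotation). Mt2 (ENSMUSG00000031762) spans chr8:94172664-94173568 and Mt1 (ENSMUSG00000031765) spans chr8:94179082-94180327, with 5513 bases between them. The other members of the cluster, Mt3 and Mt4, start upstream at 94152607 and 94137197. Each of Mt1 and Mt2 has 3 exons in its first listed transcript, and the coding sequences are of one length, 186 bases including the stop codon. They are printed to show how alike the transcripts being told apart are, in lower case with the codons for cysteine in capitals.
Mt1 coding sequence: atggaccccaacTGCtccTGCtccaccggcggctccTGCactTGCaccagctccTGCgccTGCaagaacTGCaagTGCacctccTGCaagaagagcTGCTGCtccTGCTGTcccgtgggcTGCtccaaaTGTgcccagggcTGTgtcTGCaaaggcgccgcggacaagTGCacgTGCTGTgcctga
Mt2 coding sequence: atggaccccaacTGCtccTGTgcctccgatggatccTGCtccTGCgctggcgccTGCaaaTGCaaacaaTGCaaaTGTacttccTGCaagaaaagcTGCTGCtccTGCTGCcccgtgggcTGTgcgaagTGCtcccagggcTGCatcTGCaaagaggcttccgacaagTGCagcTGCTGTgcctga
Of the 61 codons before each stop, 20 encode cysteine, and all 20 stand at the same positions in the 2 genes. The coding sequences are identical at 148 of 186 bases (79.6%). The longest run of bases shared by the 2 full transcripts is 20 bases. How the authors assigned reads that match more than one gene was not stated in the labels.

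The bases before the start of each gene are shown because the promoters hold the MREs by which these genes are known to respond to zinc. Both genes matched RefSeq's promoter table (GRCm38.p6), in windows of 300 bases, 250 before the RefSeq start and 50 after it. The letters searched for the MRE core were TGCACNC and TGCGCNC on both strands, and each match is in capitals. The Mt2 stretch is chr8:94172368-94172617 and the Mt1 stretch is chr8:94178839-94179081, both on the forward strand. The Mt1 stretch stops where the GENCODE gene model begins, 7 bases before the RefSeq start. GENCODE starts Mt2 46 bases after the RefSeq start, so the first bases shown for Mt2 lie upstream of the GENCODE gene.
Mt2 upstream: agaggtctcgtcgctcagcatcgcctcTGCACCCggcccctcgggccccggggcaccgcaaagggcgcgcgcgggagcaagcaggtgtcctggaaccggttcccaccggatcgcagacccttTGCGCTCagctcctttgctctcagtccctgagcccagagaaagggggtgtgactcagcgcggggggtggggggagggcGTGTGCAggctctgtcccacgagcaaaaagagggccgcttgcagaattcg
Mt1 upstream: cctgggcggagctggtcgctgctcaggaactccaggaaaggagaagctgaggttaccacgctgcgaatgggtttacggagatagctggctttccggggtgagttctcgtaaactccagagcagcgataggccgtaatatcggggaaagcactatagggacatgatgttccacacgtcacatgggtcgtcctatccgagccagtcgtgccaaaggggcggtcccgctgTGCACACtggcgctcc
The first 27 bases from the RefSeq start, chr8:94172618-94172644 for Mt2 and chr8:94179089-94179115 for Mt1, hold further matches.
Mt2 first bases: ggtcGTGCGCAggcccaggggcgtgtg
Mt1 first bases: tcTGCACTCcgcccgaaaagTGCGCTC
The Mt2 window held 4 MRE cores, beginning at -223, -128, -50 and 5 counted from the RefSeq start, and the Mt1 window held 3, at -23, 3 and 21. Mt3 and Mt4 held 1 each. Of 32851 RefSeq windows of the same length, 25.7% held at least 1 such match, 1.97% at least 3 and 0.518% at least 4. The core letters of the dioxin response element, GCGTG on either strand, occurred 2 times in the Mt2 window (at -52, overlapping the MRE core at -50, and at 21) and 1 time in the Mt1 window (at -194), and in 32.4% of all windows at least once. The antioxidant response element core TGACNNNGC occurred 1 time, in Mt2 at -79, and in 12.4% of all windows. The E-box CACGTG and the glucocorticoid half-site AGAACA were in neither window, against 7.15% and 18.97% of all windows. A match is a string of letters in the window, not a measured binding site. The windows end before the coding sequences begin, at chr8:94172848 for Mt2 and chr8:94179311 for Mt1, and the bases between were not searched. Which start these livers used was not measured.

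Values are TPM (transcripts of a gene in each 1000000 of its library), which are scaled for transcript length and for a fixed total per library, so that the read depth behind them is unknown. Fitted differences are on the log2(TPM + 1) scale, with limma over all 48 libraries and 15820 genes that reached 1 TPM in at least 6 libraries, and a gene was called at a Benjamini-Hochberg adjusted p under 0.05. The livers carried hepatocyte transcripts, with 7 of 8 listed hepatocyte markers found and summed to between 54109 and 144686 TPM. Of the 48 libraries, 3 carried skeletal muscle transcripts well above the rest: male HFD mixture replicate 6 (25182 TPM over 15 markers), female LFD vehicle replicate 3 (9423 TPM) and female LFD mixture replicate 3 (1951 TPM), with 805 TPM in the next. Female LFD mixture replicate 3 also carried 1836 TPM of adrenal cortex markers and 275 TPM of adipocyte markers, against medians of 9.16 and 5.87 TPM over all libraries. The exposure was visible in Cyp1a1, the classical target of the aryl hydrocarbon receptor, which averaged 1.73 TPM in male LFD vehicle livers and 139 TPM in male LFD mixture livers. All p-values are set against the spread between individual livers. Whether LFD and HFD animals were housed or sequenced together was not stated in the labels, so diet and any such difference cannot be told apart.

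By group median, metallothionein mRNA was lowest in males on the low-fat diet and highest in females. In male LFD vehicle livers Mt1 ranged from 25.5 to 89.9 TPM with a median of 38.0 TPM, and Mt2 from 9.12 to 31.0 TPM with a median of 12.3 TPM. In male LFD mixture livers the lowest, median and highest Mt1 values were 25.04, 76.8 and 106 TPM, and those of Mt2 were 10.9, 26.0 and 42.5 TPM. These were the groups with the lowest medians of both genes, and their livers overlapped each other and also some livers of other groups. Males on the high-fat diet lay higher and spread more widely. Mt1 ran from 63.8 to 575 TPM around a median of 190 TPM in male HFD vehicle livers and from 93.7 to 566 TPM around a median of 151 TPM in male HFD mixture livers. Mt2 ran from 27.05 to 472 TPM (median 113 TPM) with vehicle and from 48.1 to 482 TPM (median 106 TPM) with the mixture. The highest value of the last group belonged to replicate 6, the library with the most muscle transcripts.

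**Figure D1:**
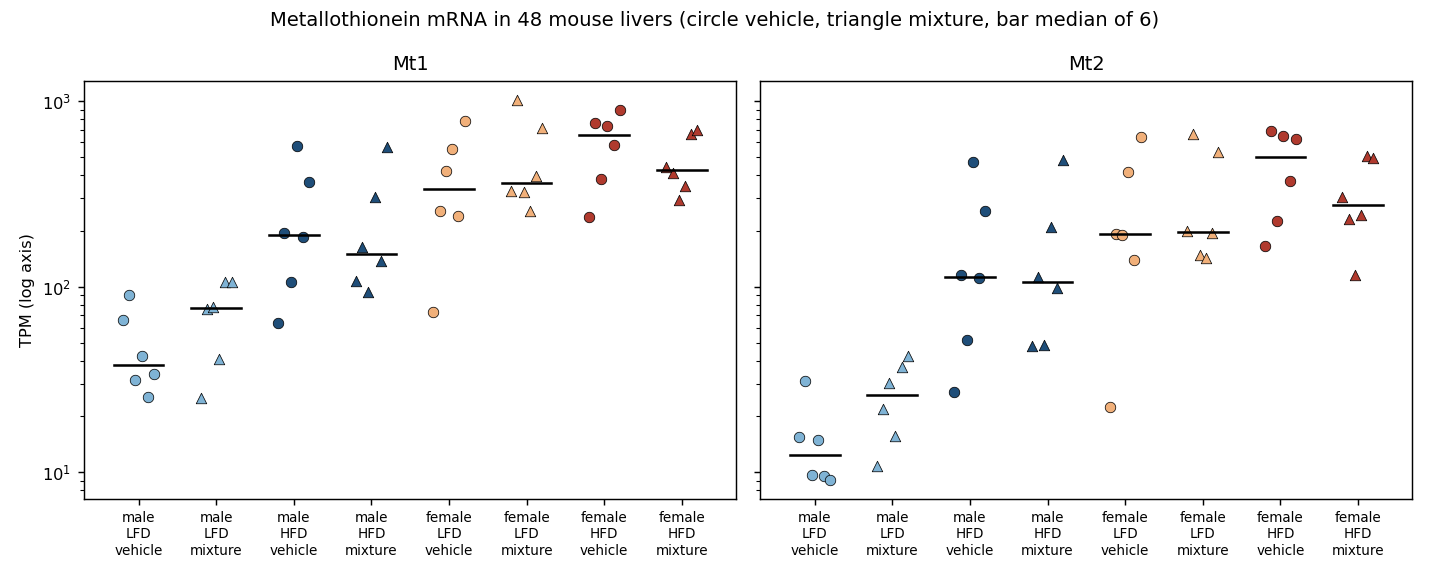
TPM of Mt1 (left) and Mt2 (right) in each liver on a log axis, by group, with circles for vehicle, triangles for the mixture and a bar at the median of 6. The male LFD groups have the lowest medians, with livers between 25.04 and 106 TPM for Mt1 and between 9.12 and 42.5 TPM for Mt2, a range that also holds some livers of other groups.

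Female livers held more of both transcripts. Mt1 in female LFD vehicle livers ranged from 73.5 to 783 TPM with a median of 338 TPM, and in female LFD mixture livers from 256 to 1016 TPM with a median of 362 TPM. Mt2 in the same groups ranged from 22.5 to 642 TPM (median 192 TPM) and from 143 to 663 TPM (median 197 TPM). The lowest female value of each gene came from 1 library, female LFD vehicle replicate 1, which lay among the males. On the high-fat diet, Mt1 ranged from 238 to 895 TPM (median 657 TPM) in female HFD vehicle livers and from 293 to 697 TPM (median 428 TPM) in female HFD mixture livers. Mt2 ranged from 166 to 693 TPM (median 498 TPM) and from 116 to 510 TPM (median 275 TPM). The female groups overlapped one another on both diets. Over all 48 livers Mt1 spanned 40.6-fold and Mt2 76.0-fold, and Mt1 stood between rank 106 and rank 3455 of the genes in its library by TPM.

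Ordered by mean log2(TPM + 1), the groups ran for Mt1 from male LFD vehicle (5.48 ± 0.68, SD, n = 6) through male LFD mixture (6.02 ± 0.81), male HFD mixture (7.53 ± 0.99), male HFD vehicle (7.60 ± 1.15), female LFD vehicle (8.26 ± 1.19), female LFD mixture (8.80 ± 0.77) and female HFD mixture (8.83 ± 0.50) to female HFD vehicle (9.09 ± 0.73). Mt2 had the same order except that male HFD vehicle (6.85 ± 1.48) stood just below male HFD mixture (6.89 ± 1.27). For Mt1, only the step from male LFD mixture to male HFD mixture, 1.51, exceeded the larger SD of the pair. For Mt2 the step from male LFD mixture to male HFD vehicle was 2.22 against a larger SD of 1.48, and that from male LFD vehicle to male LFD mixture was 0.77 against 0.72. All other neighbours in either order differed by less than the larger SD. The SD of Mt2 within a group reached 1.65 on this scale, in female LFD vehicle livers.

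The high-fat diet went with more of both transcripts in males. In vehicle-treated males the mean was 48.2 ± 24.9 TPM (SD, n = 6) on LFD and 248.6 ± 191 TPM on HFD for Mt1, and 15.0 ± 8.34 TPM and 172 ± 167 TPM for Mt2. Mt1 rose by 2.12 log2 (SE 0.49, limma adjusted p = 0.000724) and Mt2 rose by 2.98 log2 (SE 0.61, adjusted p = 0.000178). In each gene 5 of 6 HFD livers lay above all 6 LFD livers. Both members were called in a comparison where limma called 31.4% of all genes tested. In mixture-treated males Mt1 rose by 1.51 log2 (SE 0.49, adjusted p = 0.0121) and Mt2 by 2.26 log2 (SE 0.61, adjusted p = 0.00293), where 38.6% of genes were called. Mt2 did not overlap between those groups, as was true of 15.2% of all genes tested, while 1 HFD liver overlapped the LFD livers in Mt1. The Mt1 call in mixture-treated males was lost without male HFD mixture replicate 6 (1.19 log2, adjusted p = 0.0524). It was also lost without the 3 libraries with muscle transcripts (1.19 log2, adjusted p = 0.0557). In bulk liver, fewer cells of a type and less RNA per cell cannot be told apart.

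In females the same diet comparison did not reach the threshold. Mt1 averaged 387 ± 253 TPM on LFD and 599 ± 250 TPM on HFD with vehicle, a difference of 0.83 log2 (95% interval -0.16 to 1.82, limma adjusted p = 0.215). Mt2 averaged 267 ± 224 TPM and 456 ± 232 TPM, a difference of 1.16 log2 (interval -0.08 to 2.39, adjusted p = 0.163). Limma called 28% of all genes in that comparison. With the mixture the differences were 0.02 log2 for Mt1 (interval -0.96 to 1.01) and 0.13 log2 for Mt2 (interval -1.11 to 1.37), in a comparison with 19.2% of genes called. Each of these intervals still holds differences above 1 log2.

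Sex gave the widest separation, on the low-fat diet. Mt1 was higher in female than in male LFD vehicle livers by 2.78 log2 (SE 0.49, limma adjusted p = 2.51e-05) and Mt2 by 3.62 log2 (SE 0.61, adjusted p = 1.38e-05). In each gene 5 of 6 female livers lay above all 6 males, and 23.7% of all genes were called. Without female LFD vehicle replicate 1, the liver among the males, the Mt2 difference was 4.20 log2. With the mixture, the differences were 2.78 log2 (adjusted p = 3.31e-05) for Mt1 and 3.38 log2 (adjusted p = 5.52e-05) for Mt2, in a comparison where 21.5% of genes were called. In both genes every female LFD mixture liver lay above every male LFD mixture liver, which was the case for 8.74% of all genes tested in either direction. An exact permutation test of the 6 against 6 livers, two-sided and adjusted over 24 tests of the 2 genes, gave adjusted p = 0.0173 for both genes in both comparisons, with 0.00216 the smallest unadjusted p this design allows.

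On the high-fat diet the sex difference was smaller and its call did not hold across settings. With vehicle, Mt1 was higher in females by 1.49 log2 (SE 0.49, limma adjusted p = 0.0377) and Mt2 by 1.79 log2 (SE 0.61, adjusted p = 0.0480), where 11.8% of genes were called. Both calls were lost in a fit without the filter on low values (adjusted p = 0.0819 and 0.103), in a fit of those groups alone (0.0768 and 0.0920) and in the exact permutation test (0.0571 and 0.0708). Leaving out 1 library at a time kept the call in 4 of 12 cases for each gene. With the mixture, Mt1 differed by 1.29 log2 (interval 0.31 to 2.28, adjusted p = 0.0655) and Mt2 by 1.25 log2 (interval 0.02 to 2.49, adjusted p = 0.171), where 15.3% of genes were called. The 2 sexes overlapped on the high-fat diet in both genes.

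Whether the sex difference itself changed with diet was tested as an interaction. With vehicle the estimate, HFD minus LFD, was -1.29 log2 for Mt1 (interval -2.69 to 0.10, limma adjusted p = 0.203) and -1.83 log2 for Mt2 (interval -3.58 to -0.08, adjusted p = 0.143), in a comparison where 18.2% of genes were called. With the mixture the estimates were -1.49 log2 for Mt1 (adjusted p = 0.135) and -2.13 log2 for Mt2 (adjusted p = 0.0840), where 17% of genes were called. All 4 estimates were negative and none passed the threshold. A difference between the sexes in their response to the diet was therefore not established for these genes. The median of all genes also shifted in several of these comparisons, by 0.11 log2 in male vehicle and 0.15 log2 in male mixture livers for diet, by 0.11 log2 for sex in LFD mixture livers and by -0.12 and -0.15 log2 for the interactions. Trimmed-mean (TMM) scaling brought those medians to between -0.02 and 0.01 log2 and left the direction of the diet and sex differences of both genes as given.

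The dioxin mixture changed neither gene beyond the spread of the livers. In male LFD livers the difference between mixture and vehicle was 0.54 log2 for Mt1 (95% interval -0.45 to 1.53, limma adjusted p = 1) and 0.77 log2 for Mt2 (interval -0.47 to 2.00, adjusted p = 1), where 0.0379% of all genes were called. In female LFD livers it was 0.54 log2 for Mt1 (interval -0.45 to 1.53) and 0.53 log2 for Mt2 (interval -0.71 to 1.77), again with 0.0379% of genes called. Vehicle and mixture livers overlapped in both sexes. On HFD the differences were -0.07 log2 (interval -1.05 to 0.92) for Mt1 and 0.04 log2 (interval -1.19 to 1.28) for Mt2 in males, with 0.0948% of genes called. In HFD females they were -0.27 log2 (interval -1.25 to 0.72) for Mt1 and -0.49 log2 (interval -1.73 to 0.74) for Mt2, with 0.0126% of genes called. The smallest unadjusted p among these 8 tests by limma was 0.219, and the smallest by the exact permutation test was 0.0758, both for Mt2 in male LFD livers.

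Averaged over the 4 sex and diet settings, the mixture difference was 0.19 log2 for Mt1 (interval -0.31 to 0.68) and 0.21 log2 for Mt2 (interval -0.41 to 0.83), where 0.0948% of all genes were called. In the same fit Cyp1a1 rose by 3.31 log2 (SE 0.10). The mean effect of the mixture on either metallothionein was thus bounded below 1 log2 by its interval, while the intervals within a single setting were wider. The mixture difference did not change with diet beyond the error: the interaction was -0.61 log2 (Mt1) and -0.72 log2 (Mt2) in males and -0.81 and -1.03 log2 in females, with adjusted p between 0.900 and 1 and 0.00632% of genes called in each sex. Between the sexes the mixture difference changed by -0.0015 and -0.23 log2 on LFD and by -0.20 and -0.54 log2 on HFD for Mt1 and Mt2. In those 2 comparisons limma called 0% of genes, with 673 and 740 of 15820 at an unadjusted p under 0.05.

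**Figure D2:**
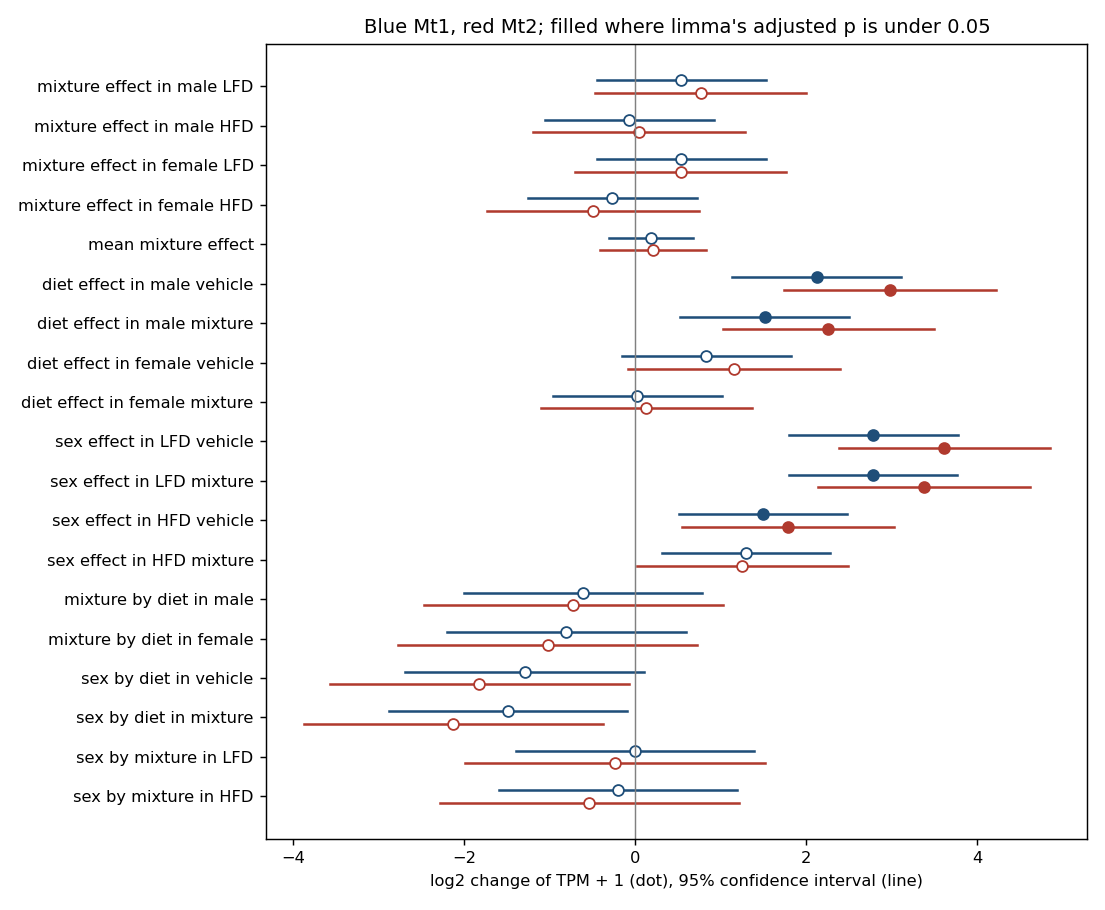
Fitted differences of Mt1 (blue) and Mt2 (red) on the log2(TPM + 1) scale with 95% confidence intervals, for all 19 comparisons, sex being female minus male, diet HFD minus LFD and exposure mixture minus vehicle. Filled dots, at an adjusted p under 0.05, appear for diet in males and for sex, where Mt2 on LFD vehicle reached 3.62 log2.

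The 2 genes moved together from liver to liver. The Pearson correlation of their log2 values was 0.988 over 48 libraries and 0.970 after each group's mean was subtracted. It was 0.989 and 0.970 over the 45 libraries left without the 3 that carried the most muscle transcripts. These correlations are descriptions, since the points share libraries and both genes share each library's scaling. Mt1 exceeded Mt2 in every library, with an Mt1 to Mt2 ratio from 1.11 to 4.29, but not by a fixed factor. The mean ratio was 3.27 ± 0.62 (SD, n = 6) in male LFD vehicle livers and 2.72 ± 0.41 in male LFD mixture livers, the groups with the least of both transcripts. It was 1.74 ± 0.41 and 1.61 ± 0.39 in male HFD vehicle and mixture livers, and between 1.39 ± 0.23 and 1.85 ± 0.79 in the 4 female groups. In vehicle-treated males the ratio ran from 2.65 to 4.29 on LFD and from 1.22 to 2.36 on HFD, without overlap. The lowest-level female liver, LFD vehicle replicate 1, had a ratio of 3.27, within the range of the LFD males. Whether the ratio differed between groups was not tested.

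**Figure D3:**
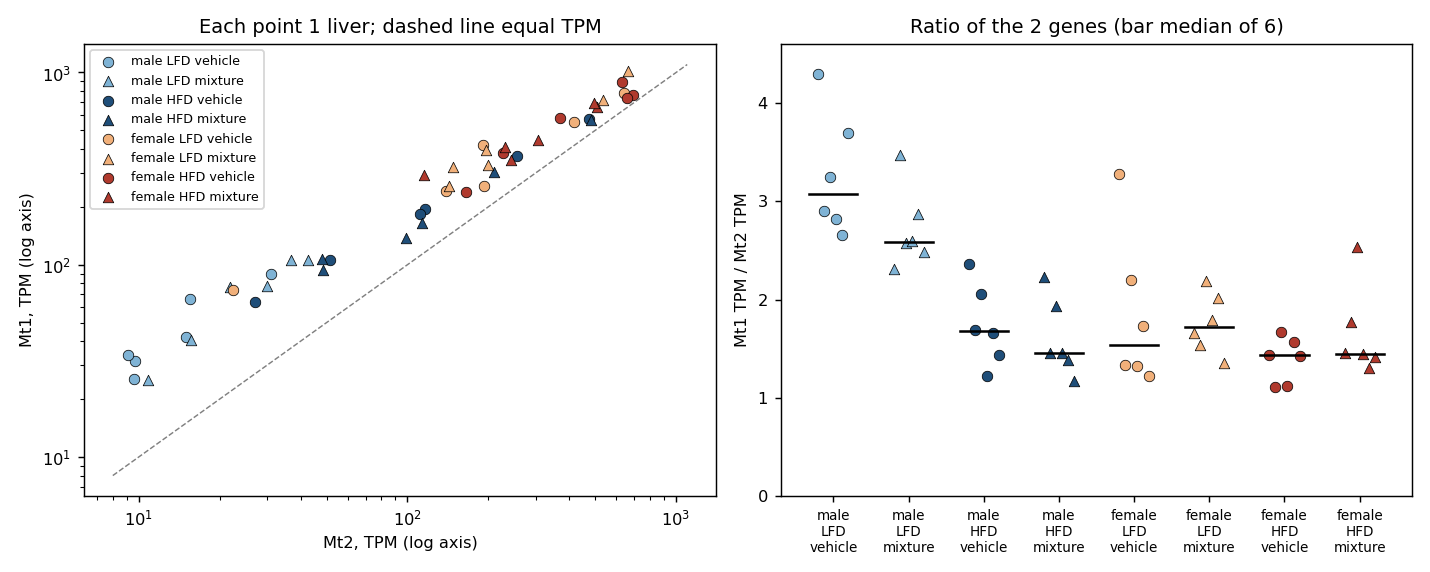
Left, Mt1 TPM against Mt2 TPM in each of 48 livers on log axes, with a dashed line of equal TPM. Right, the ratio of Mt1 to Mt2 TPM in each liver by group, with a bar at the median, highest in male LFD vehicle livers (2.65 to 4.29).

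The other genes of the cluster did not follow. Mt3, best known from the brain, averaged 4.30 ± 1.48 TPM (SD, n = 48) with a range of 1.99 to 7.78 TPM, and none of its 19 comparisons was called. Its correlation with the mean of Mt1 and Mt2 was 0.09 over 48 libraries. Mt4, known from stratified epithelia, was listed at 0 in 46 libraries and reached 0.463 and 0.757 TPM in 2 male HFD mixture livers, so it did not enter the fit.

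Genes were ranked by likeness to the mean of Mt1 and Mt2 over the 48 livers, by Pearson correlation of log2 values. Genes listed by Gm number, Rik name, Ensembl identifier, clone name or as pseudogenes were left out of the ranking. Of the rest, the most alike were Slc16a5, a monocarboxylate transporter family member (0.898), Fmo2, a flavin-containing monooxygenase (0.874), Cyp2b10, a cytochrome P450 (0.866), Acot3, an acyl-CoA thioesterase (0.866), Ildr2 (0.859), Cyp2a22, another cytochrome P450 (0.856), Rab30, a small GTPase (0.855), and Acot4, an acyl-CoA thioesterase (0.855). All 8 were called higher in females on LFD with vehicle, as the metallothioneins were, where 23.7% of all genes were called. They were also called higher in HFD than in LFD males with vehicle, where 31.4% were. The 8 were ranked over these same groups, so the calls are not independent of the ranking. Acot3 differed by 4.99 log2 and Cyp2a22 by 5.21 log2 between the sexes on LFD with vehicle, against 2.78 and 3.62 log2 for Mt1 and Mt2. Such correlations carry the group differences themselves and are given as a description. The median over all 15820 genes was 0.0861.

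Subtracting each group's mean leaves the spread among livers treated alike, with any order by replicate number that the groups share. After this step a different set stood highest, with the same kinds of names left out of the ranking. These were Map1lc3b, a structural protein of autophagosomes (0.820), Fbxo31, a ubiquitin ligase subunit (0.817), Upp2, a uridine phosphorylase (0.745), Fmo2 (0.733), Sult1a1, a sulfotransferase (0.732), Bnip3, a mitophagy receptor (0.730), Ptp4a1, a protein tyrosine phosphatase (0.727), and Cox7a2l (0.719). Fmo2 was the only gene in both sets of 8. Over all genes the middle 95% of such correlations ran from -0.590 to 0.459, with a median of -0.102. Without the 3 libraries with muscle transcripts the values of these 8 lay between 0.709 for Cox7a2l and 0.810 for Map1lc3b. In female LFD vehicle replicate 1, the liver farthest below its group in metallothionein (-2.49 log2), Map1lc3b lay 0.30 log2 and Bnip3 0.45 log2 below the group mean (deviations of -0.30 and -0.45).

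**Figure D4:**
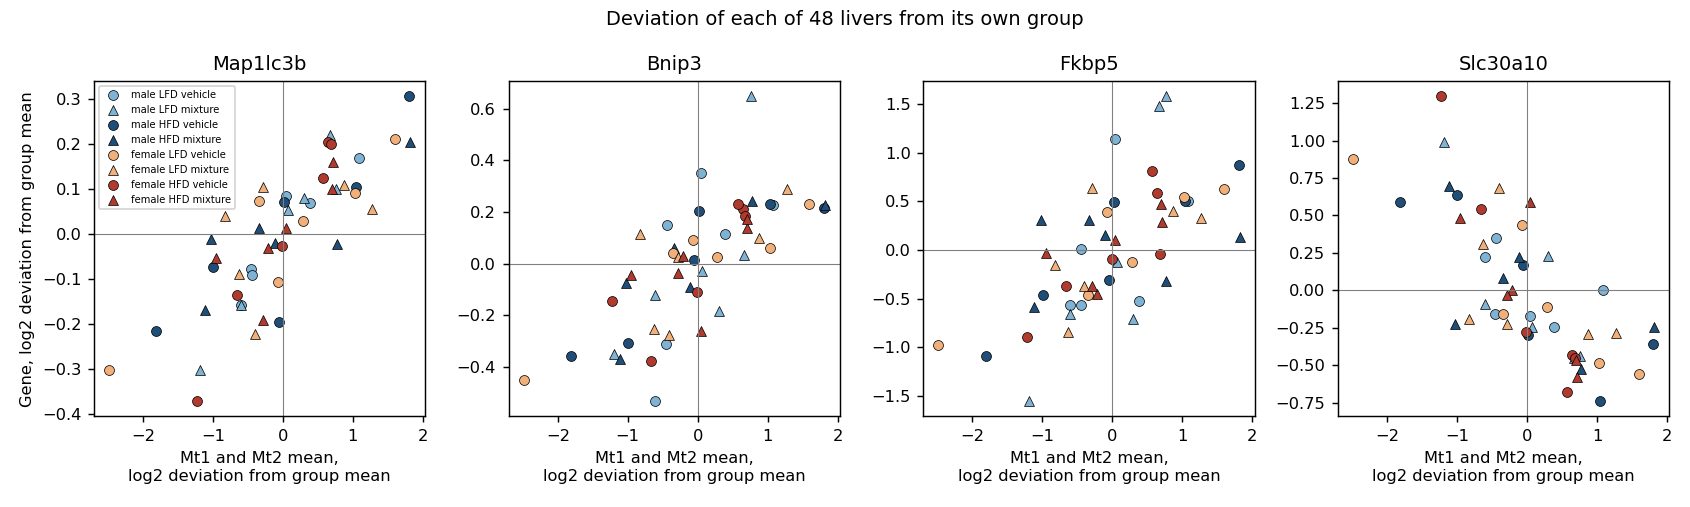
Deviation of each of 48 livers from its own group's mean (log2), for the mean of Mt1 and Mt2 on the horizontal axes and for Map1lc3b, Bnip3, Fkbp5 and Slc30a10 on the vertical axes. The first 3 rise with the metallothioneins (r of 0.820, 0.730 and 0.657) and Slc30a10 falls (r of -0.745).

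Of 31 measured genes of zinc and copper handling, 10 rose and 0 fell with HFD in vehicle males, near the 31.4% of all genes called, with a list median of 0.11 log2 beside 0.11 log2 for all genes. Atox1, a copper chaperone (0.80 log2), and the zinc transporters Slc39a9 (0.55), Slc39a5 (0.66) and Slc39a1 (0.20) had the smallest p. Mtf1, which encodes the zinc sensor that acts on the MREs, rose by 0.29 log2 in that comparison (SE 0.08, limma adjusted p = 0.00363) and averaged 5.94 ± 0.86 TPM on LFD and 7.42 ± 0.65 TPM on HFD. In mixture-treated males Mtf1 differed by 0.11 log2 (adjusted p = 0.292), and 10 list members rose and 1 fell (38.6% of all genes called). That 1 was Slc39a14, an importer of zinc, iron and manganese, which fell by 0.52 log2. Slc30a1, the zinc exporter that MTF-1 is known to control, stayed between group means of 18.1 and 22.04 TPM. Its difference was -0.05 log2 (interval -0.34 to 0.25) for diet in vehicle males and -0.03 log2 (interval -0.32 to 0.27) for sex in LFD vehicle livers.

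Between the sexes on LFD with vehicle, 9 of 31 zinc and copper genes were higher in females and 1 lower, where 23.7% of all genes were called, with a median of 0.14 log2 beside 0.09 log2 for all genes. The importers Slc39a5 (2.37 log2, from 1.39 to 11.4 TPM) and Slc39a4 (1.08 log2, from 30.6 to 57.8 TPM) and the copper pump Atp7a (0.46 log2) were higher, and Slc39a11 was lower (-0.41 log2). Slc39a14 was higher by 0.31 log2 (adjusted p = 0.0163), and Atp7b, the copper-exporting pump of hepatocytes, differed by -0.01 log2 (interval -0.25 to 0.24). With the mixture 5 were higher and 1 lower, near the 21.5% of all genes called. On HFD with vehicle 1 was higher in females, Slc39a5 (0.84 log2), and 5 were lower, where 11.8% of all genes were called. Within groups, 22 of 31 correlated negatively with the metallothioneins, with a median of -0.354 beside -0.102 for all genes. The manganese exporter gene Slc30a10 (-0.745), Slc30a7, which loads zinc into the Golgi (-0.714), and Slc39a9 (-0.648) were the lowest, and Mtf1 stood at -0.404 and Slc30a1 at 0.09. The values of Slc30a7 and Slc39a9 were picked out after they were seen.

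**Figure D5:**
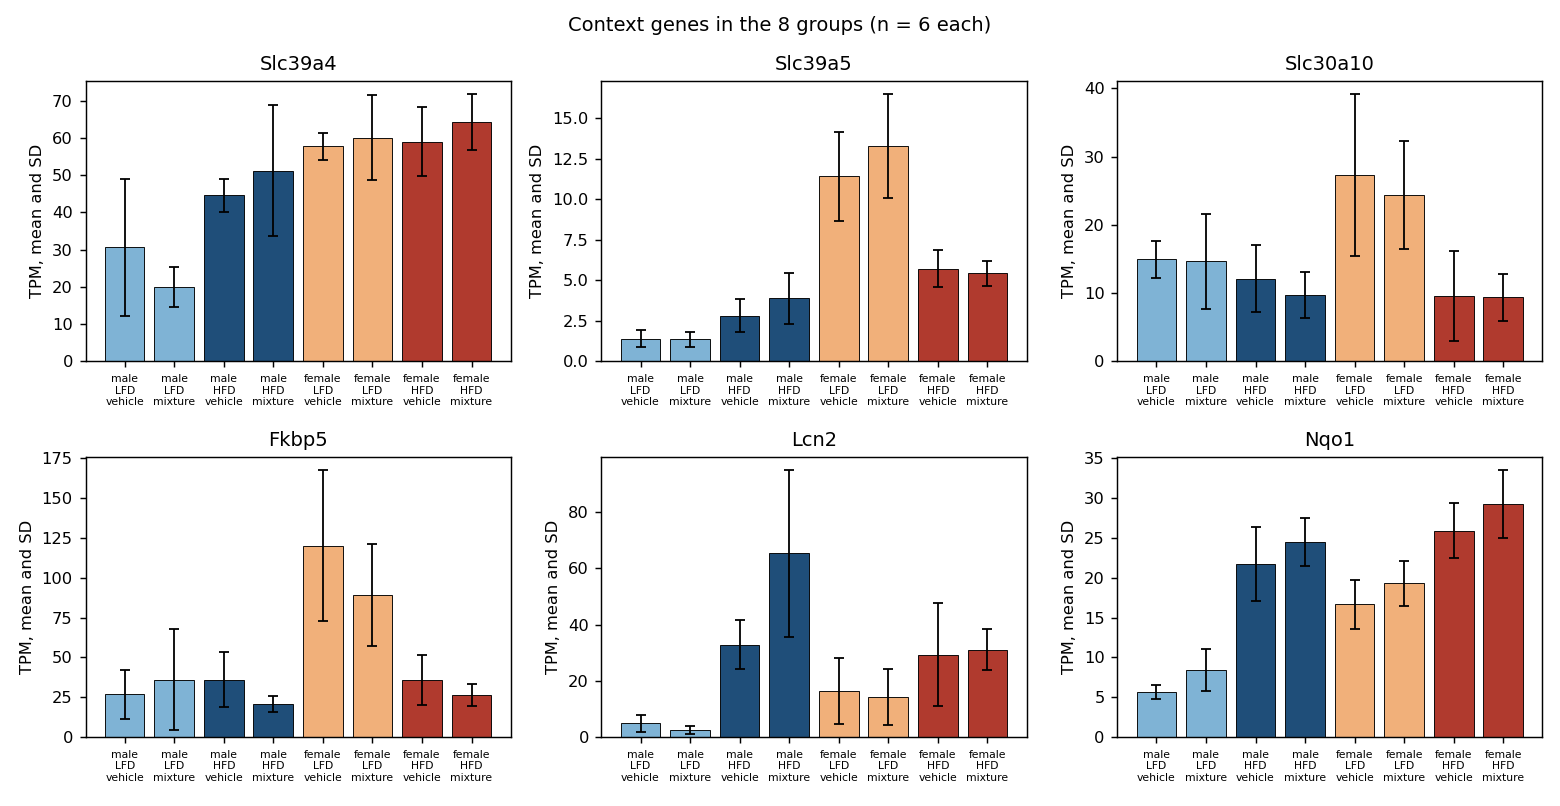
Mean TPM with SD (n = 6) in the 8 groups of the zinc importers Slc39a4 and Slc39a5, the manganese exporter Slc30a10, the glucocorticoid target Fkbp5, the acute-phase gene Lcn2 and the Nrf2 target Nqo1. Slc39a5 is highest in female LFD livers, while Lcn2 is highest in male HFD mixture livers (65.3 ± 29.6 TPM).

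Glucocorticoid-responsive genes were compared in the same way. With vehicle, 8 of 13 were higher in LFD females and 0 lower (23.7% of all genes called), with a median of 0.61 log2 beside 0.09 log2 for all genes. Fkbp5, a co-chaperone of the glucocorticoid receptor and one of its standard targets, was higher by 2.17 log2 (26.8 ± 15.2 and 120 ± 47.5 TPM), Cdkn1a, a cell cycle inhibitor, by 3.51 log2, Pdk4 by 2.55 log2 and Sgk1 by 0.91 log2. Tsc22d3, also a standard target, was higher by 0.78 log2, and Nr3c1, the receptor's own gene, differed by 0.10 log2 (interval -0.10 to 0.29). With the mixture 3 of 13 were higher, near the 21.5% of all genes called, and on HFD with vehicle 1 was, where 11.8% of all genes were called. For diet in vehicle males 2 rose and 2 fell (median -0.15 log2), near the 31.4% of all genes called, and in mixture males 2 rose and 5 fell (median -0.34 log2, 38.6% of all genes called). In vehicle males Fkbp5 differed by 0.41 log2 (interval -0.38 to 1.21), where Mt1 and Mt2 rose by 2.12 and 2.98 log2. Within groups, 9 of the 13 list members correlated positively with the metallothioneins and 4 negatively, with a median of 0.187 beside -0.102 for all genes. Fkbp5 stood at 0.657 (0.681 without the 3 libraries with the most muscle transcripts), whereas Tsc22d3 stood at -0.157 and Nr3c1 at -0.0722.

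Of 10 fasting-response genes, which share Pdk4 and Tat with the glucocorticoid list, 8 were higher in LFD females with vehicle (23.7% of all genes called), with a median of 0.73 log2, among them Ppargc1a, a coactivator of gluconeogenic genes (0.84 log2), Angptl4 (0.78 log2) and Cpt1a, which admits fatty acids to mitochondria (0.47 log2). For diet in vehicle males 2 rose, Cpt1a (0.70 log2) and Pdk4 (1.49 log2), where 31.4% of all genes were called. Clock genes, which vary with the hour of collection, differed in 6 of 13 cases between the sexes on LFD with vehicle, where 23.7% of all genes were called. Arntl (1.38 log2), Cry1 (1.00 log2) and Clock (0.59 log2) were among 3 that were higher and Dbp (-1.71 log2) among 3 that were lower. None of the 13 was called by limma for diet in males, where 31.4% (vehicle) and 38.6% (mixture) of all genes were called. In each comparison 1 of the 13 had an unadjusted limma p under 0.05, beside 40.2% (vehicle) and 46.3% (mixture) of all genes. Within groups 10 of 13 clock genes correlated positively with the metallothioneins, with a median of 0.390, the highest of the 7 lists. Single clock genes ran from -0.541 for Nr1d1 to 0.592 for Ciart. Of the fasting genes 9 of 10 correlated positively (median 0.249), and the median of all genes was -0.102. The hour of collection was not stated in the labels. Its part in the sex difference of the metallothioneins, or in their spread within groups, was not tested.

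Acute-phase genes moved in both directions with diet. In vehicle males 10 of 24 rose and 7 fell, where 31.4% of all genes were called (median 0.04 log2 beside 0.11 log2 for all genes). Orm3, an orosomucoid (3.99 log2), and Lcn2, an iron-siderophore binding protein (2.67 log2), rose, as did Saa1 (1.70 log2), while Fgb, a fibrinogen chain (-0.61 log2), and Itih3 (-0.90 log2) fell. Between the sexes on LFD with vehicle 8 were higher in females and 1 lower, where 23.7% of all genes were called. Lcn2 was higher by 1.52 log2 and Saa1 differed by -1.48 log2 (adjusted p = 0.0612). Lcn2 had its highest group mean in male HFD mixture livers, 65.3 ± 29.6 TPM, where Mt1 averaged 229 ± 182 TPM, below the 477 ± 166 TPM of female HFD mixture livers. Within groups 18 of 24 correlated positively with the metallothioneins (median 0.201 beside -0.102 for all genes), with Lcn2 at 0.492 and Saa1 at 0.357.

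Genes of the Nrf2 list rose with diet in males. The list held Nfe2l2, the gene of Nrf2 itself, and Keap1 beside targets of this oxidative stress factor. In vehicle males 15 of 16 rose and 1 fell, where 31.4% of all genes were called, with a median of 0.98 log2 beside 0.11 log2 for all genes. Gsta2, a glutathione transferase (2.91 log2), Abcc3, an exporter (2.06 log2), Nqo1, a quinone reductase (1.75 log2), and Ephx1, an epoxide hydrolase (1.55 log2), led them, and Hmox1, heme oxygenase 1, rose by 0.53 log2. On HFD with vehicle 7 of 16 were lower in females and 0 higher, led by the glutathione transferases Gstm3 (-2.08 log2) and Gsta1 (-2.09 log2), where 11.8% of all genes were called. Nqo1 correlated with the metallothioneins at 0.751 over 48 libraries and at 0.112 within groups. It was not typical of its list within groups, where 14 of 16 genes, Nfe2l2 and Keap1 among them, correlated negatively. Their median was -0.257, beside -0.102 for all genes, and Gclc stood lowest at -0.705. For the mixture averaged over settings, limma called 2 of 7 genes of the aryl hydrocarbon receptor list, both higher, and 0 of the other 6 lists. At an unadjusted p under 0.05, which 11.7% of all genes reached, there were 3 of 31 zinc and copper genes, 5 of 13 glucocorticoid genes, 2 of 24 acute-phase genes, 4 of 16 genes of the Nrf2 list, 2 of 10 fasting genes and 1 of 13 clock genes.

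Marker genes of other liver cells moved in some of the same comparisons. In LFD females with vehicle 6 of 7 Kupffer cell and macrophage markers, 6 of 7 endothelial markers and 4 of 8 stellate cell markers were higher than in males, where 23.7% of all genes were called. The summed Kupffer cell markers ran from 174 to 448 TPM in male LFD vehicle livers and from 353 to 979 TPM in female ones. With HFD in vehicle males, where 31.4% of all genes were called, 6 of 8 stellate cell markers rose, from summed levels of 307 to 374 TPM on LFD to levels of 472 to 535 TPM on HFD, while 5 of 7 hepatocyte markers fell, from 90002 to 138288 TPM summed on LFD to 68264 to 80679 TPM on HFD. Within groups the summed markers of hepatocytes, Kupffer cells, stellate cells and endothelial cells correlated with the metallothioneins at -0.258, -0.133, -0.0492 and -0.00450, and over all 48 libraries at -0.175, 0.536, 0.534 and 0.368. Of 5 adipocyte markers 2 entered the fit and 1, Cfd, rose with HFD in vehicle males (1 again in mixture males), with summed levels of the 5 at a median of 1.28 TPM on LFD and 38.8 TPM on HFD. The summed adipocyte markers correlated with the metallothioneins at 0.0958 over 48 libraries and at -0.0622 within groups. The correlations of the other lists over 48 libraries ran from -0.776 for exocrine pancreas markers (-0.0941 within groups) to 0.245 for neutrophil markers (0.191 within groups). The pancreas value rests mainly on Cela1, the pancreas marker that entered the fit, which averaged 16.2 TPM and stood at -0.770 by itself. Neutrophil markers summed to at most 13.9 TPM in any library. The part of these cell types in the metallothionein differences was not tested.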

How the data were processed

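The 48 livers, 6 per group, were profiled by poly(A) RNA sequencing. The deposited values are TPM per gene, computed by the authors; each column sums to 1000000, so depth cannot be recovered. The submitters' processing notes name FastQC, Trimmomatic 0.36, STAR 2.5.2b, DESeq2 and build GRCm38, without their roles; the counting program and annotation were not stated in the labels. Groups follow the sample titles. TPM was taken to log2(TPM + 1) and fitted with limma 3.58.1 (R 4.3.3) over 8 groups and 15820 genes at 1 TPM or more in at least 6 libraries, with Benjamini-Hochberg adjustment over these genes for each of 19 comparisons. TMM factors were computed on the TPM. The procedure was tested on simulated data. Alternatives were a pseudocount of 0.1, no filter, TMM scaling, fits of only the groups compared, the replicate number as a block, omission of 3 libraries with muscle transcripts, omission of each library, and, chosen after seeing the data, exact permutation tests. The members and gene lists were chosen with earlier results of these data known. Mt1 and Mt2 were named throughout, Mt3 and Mt4 by level, and up to 4 called members with the smallest p per list and comparison, beside a fixed set of regulators and targets and the 8 most correlated genes by each measure. That ranking left out genes listed by Gm number, Rik name, Ensembl identifier, clone name or as pseudogenes.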

Additional observations from a re-analysis of the deposited data

Results flagged for a closer look

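Of 24 sets of 6 libraries examined (Mt1, Mt2 and the Mt1 to Mt2 ratio in 8 groups), 2 had a highest library far from the other 5, by a gap that exceeds Dixon's 95% critical value. The gaps were taken on TPM and on the ratio, not on the log2 scale of the fits. Chance alone flags about 1 in 20 such sets if values are normally distributed, which was not tested. Mt2 in male HFD mixture livers had an SD of 165 TPM around a mean of 167 TPM. In male HFD mixture livers the highest Mt2 value was 482 TPM, in replicate 6, which also carried 25182 TPM of skeletal muscle markers. In male LFD vehicle livers the highest Mt2 value was 31.0 TPM, in replicate 2, which also had the highest Mt1 of its group at 89.9 TPM.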

How the results depend on the processing

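Over the 250 alternatives other than leaving out 1 library, 233 kept the direction and the side of the threshold, 8 lost a call, 3 gained one and 6 changed sign in differences that were never called. Sex on HFD with vehicle lost its call without the filter (1.49 log2 for Mt1, 1.79 for Mt2), in the fit of only the groups compared (1.49 and 1.79), by exact permutation (1.49 and 1.79) and, for Mt2, with TMM scaling (1.83 log2, adjusted p = 0.0514). Without the 3 libraries with muscle transcripts, diet in mixture males lost its Mt1 call (1.19) and sex on HFD with the mixture gained one for Mt1 (1.62, adjusted p = 0.0198). The sign changes were Mt2 for mixture in HFD males with TMM scaling (-0.013) and, without those 3 libraries, the same difference (-0.36), diet in mixture females (-0.068 for Mt1, -0.028 for Mt2) and sex by mixture for Mt1 on LFD (0.18) and HFD (0.12). Apart from the numbers of libraries and genes in each fit, the cause was not tested.

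Over all genes, same-numbered libraries did not deviate together (mean correlation 0.0170, against -0.00279 for other numbers), and 11 of 48 correlated best with their own number. The mean of Mt1 and Mt2 did show some order by number. In replicate 1 it deviated by -2.49 to -0.40 log2, except in male LFD vehicle (0.39) and female HFD mixture (0.04). In replicate 6 it deviated by 0.68 to 1.82 log2, except in male LFD vehicle (-0.44). These numbers were picked after the values were seen, and the source of the order was not tested. With the replicate number as a block, sex on HFD with the mixture was called for Mt1 (1.29 log2, adjusted p = 0.0204) and sex by diet with the mixture for Mt2 (-2.13 log2, adjusted p = 0.0235). The block changed no other call.

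Leaving out 1 library changed a call or a sign in 59 of 672 cases. The ranges of log2 differences were 1.19 to 1.71 (Mt1, diet in mixture males), 1.18 to 1.81 and 1.38 to 2.20 (Mt1 and Mt2, sex on HFD with vehicle), 1.10 to 1.62 (Mt1, sex on HFD with the mixture) and -2.41 to -1.42 (Mt2, sex by diet with vehicle, called at adjusted p = 0.0295 without female LFD vehicle replicate 1). For differences never called they were -0.14 to 0.26 and -0.039 to 0.40 (Mt1 and Mt2, diet in mixture females), -0.39 to 0.25 and -0.36 to 0.45 (Mt1 and Mt2, mixture in HFD males), -0.055 to 0.90 (Mt2, mixture in LFD females), -0.41 to 0.27 and -0.82 to 0.13 (Mt1 and Mt2, sex by mixture on LFD) and -0.51 to 0.12 (Mt1, sex by mixture on HFD). Depth is unknown for TPM.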
